A study of Mus musculus with 8 samples.

Results

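The 10 genes described here encode paired forms of 5 nuclear subunits of cytochrome oxidase, complex IV of the respiratory chain. They were taken by name as pairs of a tissue-restricted and a general form: Cox4i2 and Cox4i1, Cox6a2 and Cox6a1, Cox7a1 and Cox7a2, Cox8b and Cox8a, and Cox6b2 and Cox6b1. The rule of choice used no measured value, and the 10 are among 25929 genes listed in the expression table. All 10 were annotated as protein coding, and all 10 reached the level needed for testing, 1 FPKM (fragments per transcript length and library depth) in at least 2 libraries.

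The libraries came from mouse hearts, 2 in each of 4 groups, and are named by group and number, as in WT-TAC1. The WT groups were C57BL/6 mice, and the Fat1 groups were littermates labelled Fat-1, whose transgene, fat-1 of the nematode Caenorhabditis elegans, encodes an enzyme that mammals lack and with which n-3 fatty acids can be made from n-6. At 3 months of age the mice underwent transverse aortic constriction (TAC), which overloads the left ventricle with pressure, for 8 weeks, or a sham operation in which the chest was opened and the aorta left free. Per the labels the RNA was from ventricular tissue, whereas the methods speak of entire hearts, and neither says which promoter drives the transgene or whether hearts were pooled. The 2 libraries of a group are called independent samples, so p-values measure the spread between these samples only.

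Complex IV passes electrons from cytochrome c to oxygen and pumps protons across the inner mitochondrial membrane. Its catalytic core is encoded by mitochondrial DNA, and nuclear subunits surround that core. Several of the nuclear subunits exist in alternative forms: Cox6a2, Cox7a1 and Cox8b are the forms of heart and skeletal muscle and take the place of Cox6a1, Cox7a2 and Cox8a as these tissues mature, Cox4i2 is an oxygen-responsive form known from lung and a few specialised cells, and Cox6b2 is the form of the testis.

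To measure each form, the partners of a pair must be told apart by sequence. No 50-base stretch of any member was shared with its partner (0% in all 5 pairs), and the coding sequences of partners were 69.6% identical for Cox4i2 and Cox4i1, 67.3% for Cox7a1 and Cox7a2, 65.3% for Cox6a2 and Cox6a1, 64.3% for Cox6b2 and Cox6b1 and 56.4% for Cox8b and Cox8a. Such stretches were shared with other annotated transcripts by 3 members, namely by Cox6a1 with the processed pseudogene AC148174.2 (9.16% of its stretches), by Cox4i1 mainly with Emc8 on the opposite strand (6.65% with all other genes) and by Cox6a2 with Itgad on the opposite strand (3.33%). AC148174.2 was not among the genes analysed, strand of counting is not given in the sources used here, and the values of Cox6a1, Cox4i1 and Cox6a2 are uncertain to that extent.

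Promoters are shown for the pairs whose balance the results turn on, because the muscle and general forms differ there in base composition. They are the 300 bases from 250 before to 50 after the start of the gene, from RefSeq on GRCm38.p6, written 5′ to 3′ along the strand of the gene, and 7 of the 10 members matched an entry (Cox4i1, Cox4i2 and Cox6a2 did not). Capitals mark each match, on either strand, to one of the motifs named in the next paragraph.
Cox8b (chr7:140900397-140900696, minus strand): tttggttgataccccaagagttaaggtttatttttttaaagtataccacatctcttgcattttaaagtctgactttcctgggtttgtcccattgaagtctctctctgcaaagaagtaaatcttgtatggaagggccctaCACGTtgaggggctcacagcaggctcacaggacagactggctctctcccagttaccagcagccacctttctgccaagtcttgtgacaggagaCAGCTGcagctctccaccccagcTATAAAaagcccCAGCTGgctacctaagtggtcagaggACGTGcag
Cox8a (chr19:7217567-7217866, minus strand): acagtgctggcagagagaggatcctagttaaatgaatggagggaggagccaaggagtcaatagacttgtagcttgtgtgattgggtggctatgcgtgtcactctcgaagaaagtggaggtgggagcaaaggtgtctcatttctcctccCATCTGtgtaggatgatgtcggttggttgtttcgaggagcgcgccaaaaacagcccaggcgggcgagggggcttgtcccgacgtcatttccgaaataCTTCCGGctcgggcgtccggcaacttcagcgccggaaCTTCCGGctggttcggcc
Cox7a1 (chr7:30183921-30184220, plus strand): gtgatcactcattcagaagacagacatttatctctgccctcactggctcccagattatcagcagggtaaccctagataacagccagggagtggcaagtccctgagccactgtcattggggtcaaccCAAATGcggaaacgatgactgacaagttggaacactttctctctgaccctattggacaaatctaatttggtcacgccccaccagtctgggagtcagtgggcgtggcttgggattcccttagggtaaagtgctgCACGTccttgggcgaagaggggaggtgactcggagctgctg
Cox7a2 (chr9:79759804-79760103, minus strand): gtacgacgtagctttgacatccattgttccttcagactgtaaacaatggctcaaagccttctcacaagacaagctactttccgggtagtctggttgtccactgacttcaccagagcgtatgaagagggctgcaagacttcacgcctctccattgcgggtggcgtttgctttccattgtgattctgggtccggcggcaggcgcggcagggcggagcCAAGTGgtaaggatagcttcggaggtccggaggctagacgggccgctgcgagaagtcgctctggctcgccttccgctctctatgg
Cox6a1 (chr5:115348909-115349208, minus strand): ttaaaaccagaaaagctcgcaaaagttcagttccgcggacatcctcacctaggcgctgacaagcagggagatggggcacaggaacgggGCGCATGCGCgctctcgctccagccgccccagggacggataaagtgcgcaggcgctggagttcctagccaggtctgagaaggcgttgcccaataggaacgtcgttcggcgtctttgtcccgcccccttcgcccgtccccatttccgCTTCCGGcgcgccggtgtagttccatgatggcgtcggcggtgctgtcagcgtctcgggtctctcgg

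The muscle forms Cox8b and Cox7a1 had fewer CpG sites in these windows than their partners. Cox8b had 2 CpG sites and 48.3% GC and Cox7a1 7 sites and 53%, whereas their partners Cox8a and Cox7a2 had 19 and 20 sites with 56% and 56.7% GC. Cox6a1 had 32 sites and 63% GC, Cox6b1 17 sites and 53% and the testis form Cox6b2 10 sites and 55.7%, and the median of all 32851 promoters was 7 sites and 52.7% GC. The ETS motif CCGGAAG occurred in the general forms Cox6a1, Cox8a and Cox6b1 (3 of 7 members, against 8.86% of all promoters), and the NRF-1 core GCGCATGC in Cox6a1 (1 of 7, 2.71% of all), where its matches overlap because it is nearly the same on both strands. ACGTG, the core of hypoxia-inducible factor sites, occurred in Cox7a1 and Cox8b (2 of 7, 19.6% of all), and the E-box CANNTG in 5 of 7 (72.3% of all). TATAAA, searched after the sequences had been seen, occurred in Cox8b (1 of 7, 13.6% of all), and AAGGTCA and TGACGTCA in none of the 7 (4.72% and 1.79% of all). A match is a string of letters and not a measured site.

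Of the 10 genes, 5 lay on chromosome 7 of GRCm38: Cox6b2 (ENSMUSG00000051811, chr7:4751792-4753094), Cox7a1 (ENSMUSG00000074218, chr7:30184144-30186078), Cox6b1 (ENSMUSG00000036751, chr7:30616861-30626151), Cox6a2 (ENSMUSG00000030785, chr7:128205435-128206387) and Cox8b (ENSMUSG00000025488, chr7:140898945-140900446). The others were Cox4i2 (ENSMUSG00000009876, chr2:152754173-152765037), Cox4i1 (ENSMUSG00000031818, chr8:120668222-120674207), Cox6a1 (ENSMUSG00000041697, chr5:115345642-115348981), Cox7a2 (ENSMUSG00000032330, chr9:79755361-79759878) and Cox8a (ENSMUSG00000035885, chr19:7215153-7217616).

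The depth recovered from the FPKM values was 14163994 to 21218331 fragments per library. The 12 cardiomyocyte markers were high in every library, but their geometric mean was 1041 FPKM in WT-TAC1 and 1945 to 2342 FPKM in the other 7. All 13 lung and airway epithelium markers were above 3 fragments in WT-TAC1, where their summed level was 1758 FPKM, and 11 of 13 in both WT-TAC2 and Fat1-Sham1, where the sums were 3915 and 88.9 FPKM. The sum was at most 7.13 FPKM in the other 5 libraries. WT-TAC1 also held thymocyte mRNA, with 1184 FPKM summed over 6 markers against at most 1.90 FPKM elsewhere. The geometric mean of 8 skeletal muscle markers was 19.5 FPKM in WT-TAC1 and at most 1.30 FPKM elsewhere. Their sum of 309.6 FPKM in WT-TAC1 lay within the 114.6 to 426.8 FPKM of the others. In bulk tissue, fewer cells of a type and less RNA per cell cannot be told apart. WT-TAC1 and WT-TAC2 therefore stood apart from the rest, and the fold changes and ratio tests that use them are followed by values with 1 of them left out.

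By level, the members fell into 3 ranges. Median FPKM over the 8 libraries is a value per length, comparable between genes only as far as the lengths used are right. It was 2152 for Cox6a2, 2060 for Cox8b, 1947 for Cox7a1, 1578 for Cox4i1 and 1366 for Cox6b1. It was 624.3 for Cox7a2, 271 for Cox8a and 256.5 for Cox6a1, and 9.75 for Cox4i2 and 5.28 for Cox6b2. The libraries held the muscle form in excess in the pairs Cox6a2 and Cox6a1, Cox7a1 and Cox7a2 and Cox8b and Cox8a, and the general form in excess in the other 2 pairs. Of the 9 neighbours in this order, compared within the 8 libraries by an exact two-sided sign-flip permutation test on log2(FPKM + 0.1), the order could not be told for Cox6a2 and Cox8b (adjusted p = 0.625), Cox8b and Cox7a1 (adjusted p = 0.281) and Cox8a and Cox6a1 (adjusted p = 0.378). The other 6 neighbours differed at the 0.1 threshold, with adjusted p from 0.0176 to 0.0938 by that test. It measures spread between libraries and does not cover an error in the length used for a gene. In the 4 sham libraries alone, Cox7a1 was the first (2197 FPKM), and no neighbour differed (smallest adjusted p = 0.161), since 4 libraries cannot give an exact p below 0.125.

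**Figure D1:**
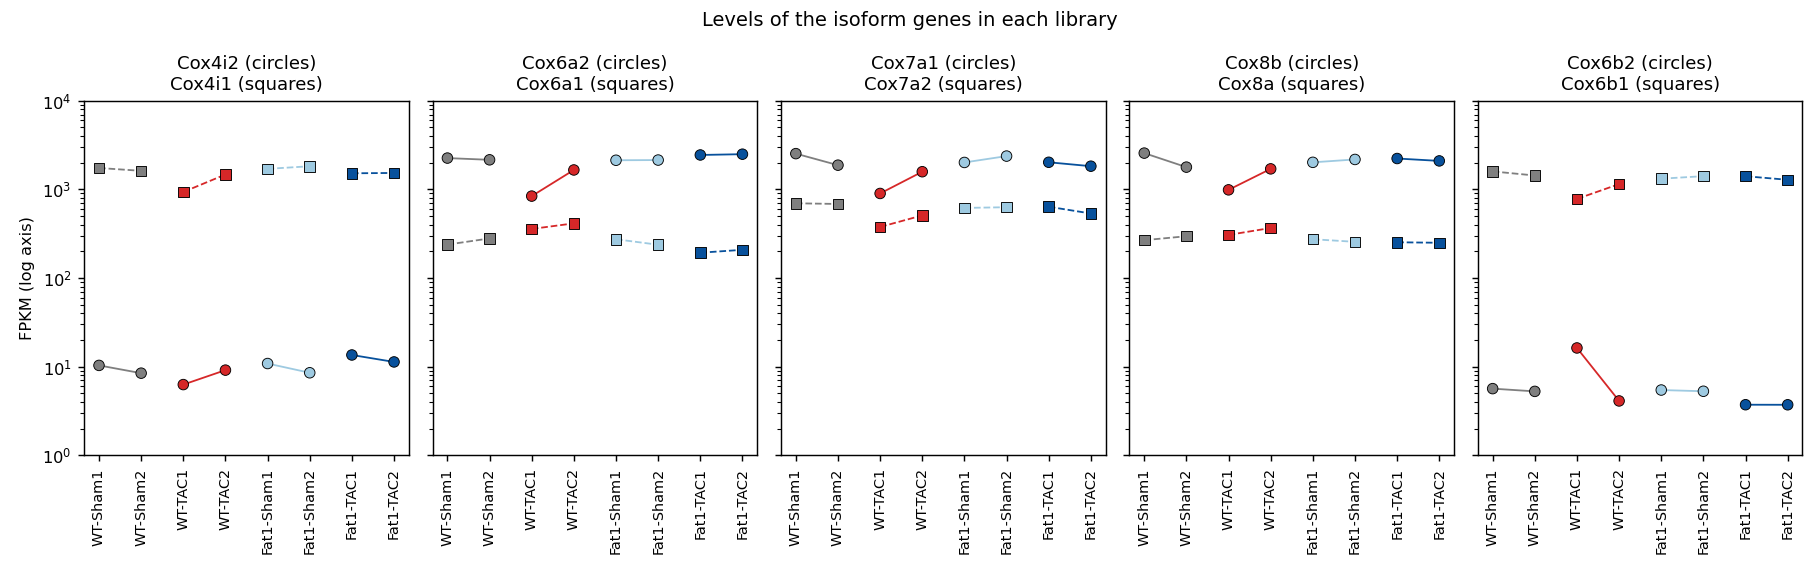
FPKM of the 10 isoform genes in each of the 8 libraries, on a log axis, with 1 panel per pair, circles for the tissue-restricted and squares for the general form, and lines joining the 2 libraries of a group. Cox6a2, Cox7a1, Cox7a2, Cox8b, Cox4i1, Cox4i2 and Cox6b1 have their lowest value in WT-TAC1, Cox6a1 and Cox8a their highest values in the WT-TAC libraries, and Cox6b2 its highest value of 16.3 FPKM in WT-TAC1.

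Cox6a2 is the muscle form of a small membrane-spanning subunit. It had 2258 and 2158 FPKM in the WT-Sham libraries, 841 and 1658 FPKM in WT-TAC, 2134 and 2145 FPKM in Fat1-Sham and 2448 and 2498 FPKM in Fat1-TAC. Both WT-TAC libraries lay below, and both Fat1-TAC libraries above, every sham library. Its general partner Cox6a1 ran the other way, with 238.7 and 280 FPKM in WT-Sham, 358.3 and 414.3 FPKM in WT-TAC, 274.2 and 237.7 FPKM in Fat1-Sham and 193.3 and 208.3 FPKM in Fat1-TAC. Both WT-TAC libraries were the highest and both Fat1-TAC libraries the lowest of the 8.

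Cox7a1 is the muscle form of a subunit that lies where complexes dimerise. It had 2535 and 1878 FPKM in WT-Sham, 901 and 1584 FPKM in WT-TAC, 2015 and 2378 FPKM in Fat1-Sham and 2025 and 1829 FPKM in Fat1-TAC. The WT-TAC libraries were the lowest 2, and the fat-1 groups overlapped. Cox7a2, its general partner, had 697.7 and 685.5 FPKM in WT-Sham, 377.4 and 509.3 FPKM in WT-TAC, 618.8 and 629.9 FPKM in Fat1-Sham and 638.2 and 535.2 FPKM in Fat1-TAC, and its lowest 2 libraries were again those of WT-TAC.

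Cox8b, the muscle form of the smallest subunit, had 2569 and 1785 FPKM in WT-Sham, 989 and 1706 FPKM in WT-TAC, 2022 and 2179 FPKM in Fat1-Sham and 2233 and 2098 FPKM in Fat1-TAC. WT-TAC2 lay only just below WT-Sham2, so that the groups were separate by a narrow margin. Cox8a, its general partner, had 267.6 and 296.5 FPKM in WT-Sham, 306.9 and 367.3 FPKM in WT-TAC, 274.3 and 256.4 FPKM in Fat1-Sham and 253.5 and 250.2 FPKM in Fat1-TAC. Its WT-TAC libraries were the highest 2, as for Cox6a1, and it varied least of the members, 1.47-fold between its lowest and highest library. Cox7a1 and Cox8b are also used by brown fat, and Ucp1, the uncoupling protein of brown fat, was at most 0.943 FPKM in Fat1-Sham2, Fat1-TAC1 and Fat1-TAC2, where Cox8b had 2098 to 2233 FPKM, and 12 to 101.8 FPKM in the other 5 libraries. The 6 brown adipocyte markers together summed to 380.8 FPKM in Fat1-Sham2, the highest of the 8 libraries, and to 109.4 to 348.1 FPKM in the others. The list includes Cpt1b and Pdk4, which heart myocytes also express, so the sum does not measure brown fat alone. In Fat1-Sham2, 2 of the 6 markers were at or under 3 fragments. The geometric mean of the list was 2.73 FPKM there and 2.25 to 19.5 FPKM in the others. The part of brown fat in the levels of Cox7a1 and Cox8b was not tested.

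Cox4i1, the general form of a subunit that binds adenine nucleotides, had 1746 and 1621 FPKM in WT-Sham, 935 and 1474 FPKM in WT-TAC, 1707 and 1826 FPKM in Fat1-Sham and 1521 and 1534 FPKM in Fat1-TAC. Its TAC libraries lay below the sham libraries in both genotypes. Cox4i2 was 112.1 to 213.7 times less abundant than Cox4i1, with 10.3 and 8.46 FPKM in WT-Sham, 6.29 and 9.15 FPKM in WT-TAC, 10.9 and 8.55 FPKM in Fat1-Sham and 13.6 and 11.3 FPKM in Fat1-TAC. Its highest 2 libraries were those of Fat1-TAC, and WT-Sham and WT-TAC overlapped.

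Cox6b1, the general form of a subunit facing the intermembrane space, had 1597 and 1436 FPKM in WT-Sham, 782 and 1149 FPKM in WT-TAC, 1322 and 1411 FPKM in Fat1-Sham and 1409 and 1285 FPKM in Fat1-TAC, and its lowest 2 libraries were those of WT-TAC. Cox6b2, the testis form, had 5.66 and 5.27 FPKM in WT-Sham, 16.3 and 4.11 FPKM in WT-TAC, 5.46 and 5.29 FPKM in Fat1-Sham and 3.73 and 3.72 FPKM in Fat1-TAC. WT-TAC1 stood apart with 153 fragments, against 32 to 53 in the other 7 libraries, where the detection floor of 3 fragments lies far below. WT-TAC1 was also the library with thymocyte mRNA, and the part of those cells in the Cox6b2 value was not tested.

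The first comparison asked what pressure overload does to these genes in WT hearts. The mean of 7 of the 10 members was lower after TAC, and the members' median log2 fold change was -0.59 on the log2(FPKM + 1) scale, while the median of all 14442 genes tested was 0.39. None of the 10 was called at an adjusted p under 0.1 and a 1.5-fold change by limma with Benjamini-Hochberg adjustment, and 0.935% of all genes were called. At an unadjusted p under 0.05 and the same fold, 4 members were lower (Cox6a2, Cox7a1, Cox7a2 and Cox6b1) and 0 higher, where 1.11% of all genes were lower and 22.7% higher. Libraries did not overlap for 6 members that were lower in WT-TAC (7.09% of all genes) and for 2, Cox6a1 and Cox8a, that were higher (52.5% of all genes). On these same libraries, the study reported a set of respiratory chain genes, complex IV genes among them, as lower after overload and restored in fat-1 hearts. Its cutoff for these genes was a P under 0.05 with 1.5-fold, and the direction of such genes here is not independent evidence. The study also measured complex proteins, mitochondrial structure and ATP, which mRNA levels do not cover.

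The muscle forms had the lowest fold changes of the 10 with all libraries and the deposited scaling, an order that did not hold without WT-TAC1 or WT-Sham1 or under quantile normalization. Cox6a2 stood at -0.90 on the log2 scale (standard error 0.32, limma adjusted p = 0.175), with 0.395% of the genes tested below it. Cox7a1 had -0.87 (standard error 0.31, limma adjusted p = 0.175; 0.471% of genes lower) and Cox8b had -0.72 (standard error 0.31, limma adjusted p = 0.182; 0.914% of genes lower). Of the general forms, Cox6b1 had -0.68, Cox7a2 -0.66 and Cox4i1 -0.52, with limma adjusted p from 0.175 to 0.197. Cox6a1 had 0.57 (standard error 0.16, limma adjusted p = 0.175) and Cox8a 0.25 (standard error 0.15, limma adjusted p = 0.266), both near the median of all genes, and the sign of Cox8a turned to -0.22 when libraries were scaled by their median of ratios. Cox6b2 had 0.54 (standard error 0.50), but 1.42 when WT-TAC2 and -0.34 when WT-TAC1 was left out, and Cox4i2 had -0.27 (standard error 0.24).

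The size of these differences rested on WT-TAC1. Without it, no member was called, the members' median was -0.33 and Cox6a2 had -0.41, Cox7a1 -0.46 and Cox8b -0.33, while the general forms Cox7a2 and Cox6b1 had -0.44 and -0.40, Cox6a1 0.68 and Cox8a 0.38. Under quantile normalization Cox4i2 had -0.80 and Cox7a2 -0.59, below the -0.57 of Cox6a2. Without WT-TAC2, 7 members and 7408 genes were called, and Cox6a2 had -1.39 and Cox7a1 -1.28. When each library was scaled to its 12 cardiomyocyte markers, a choice made after seeing the data, the members' median was -0.08, Cox6a2 had -0.40 and Cox6a1 1.08, and none was called. Relative to that marker mean, Cox6a2 was 0.808 and 0.853 in the WT-TAC libraries, and 0.916 to 1.121 in the other 6 libraries, whereas Cox4i1 was 0.898 and 0.758 in WT-TAC and 0.665 to 0.847 in the others. The other muscle forms overlapped on this measure. Cox7a1 was 0.865 and 0.814 in WT-TAC and 0.793 to 1.230 in the others, and Cox8b was 0.950 and 0.877 against 0.903 to 1.247.

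**Figure D2:**
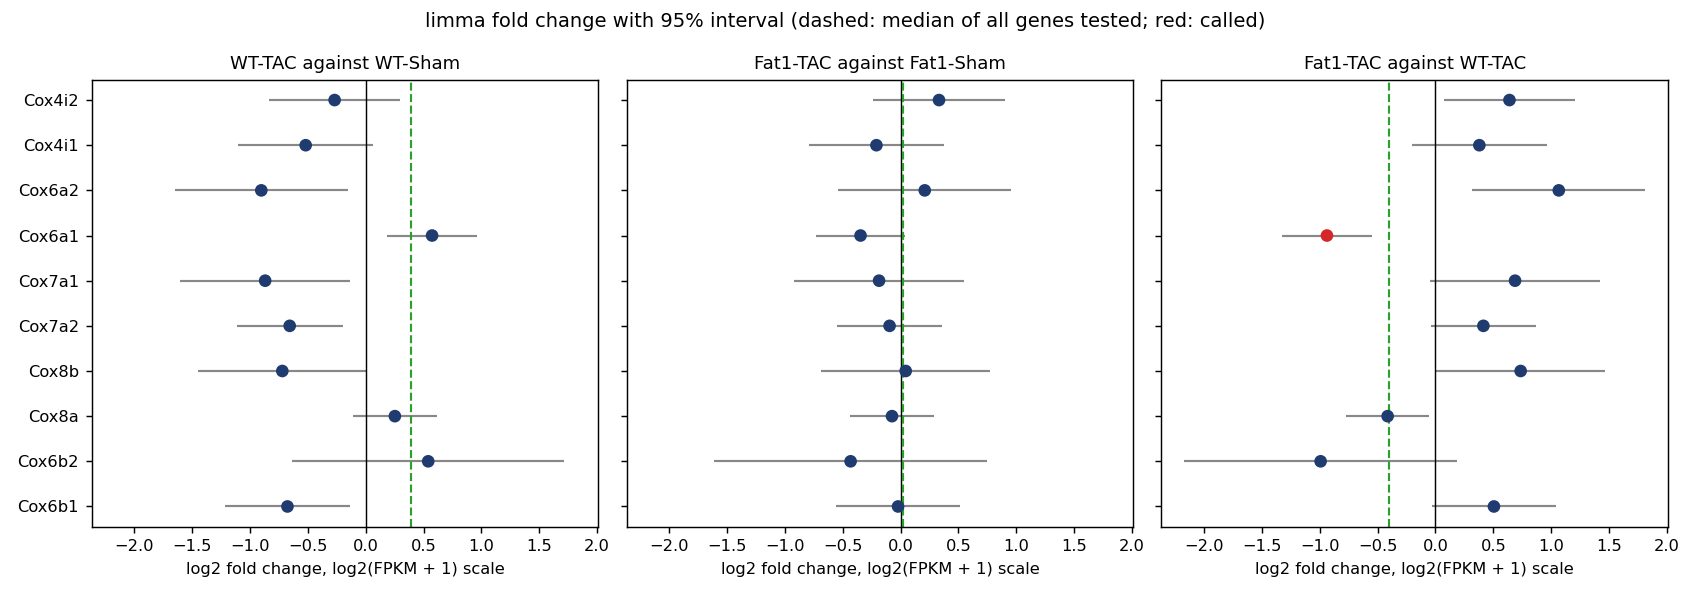
limma log2 fold change on the log2(FPKM + 1) scale (point) with its 95% interval (line) for the 10 members in 3 comparisons, with the median of all genes tested as a dashed line and the called member in red. In WT-TAC against WT-Sham 7 members lie below 0, in Fat1-TAC against Fat1-Sham all intervals cross 0, and in Fat1-TAC against WT-TAC Cox6a1 at -0.94 is the called member.

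The same comparison was made in the fat-1 mice. None of the members was called between Fat1-TAC and Fat1-Sham (0.00692% of all genes, limma), and 0 members reached an unadjusted p under 0.05 and 1.5-fold (1.33% of all genes were higher and 0.533% lower by that rule). The log2 fold changes ran from -0.43 for Cox6b2 to 0.33 for Cox4i2, with a median of -0.08 against 0.02 over all genes. Libraries did not overlap for Cox4i2 and Cox6a2, which were higher after TAC (26.8% of all genes), and for Cox4i1, Cox6a1, Cox8a and Cox6b2, which were lower (21.5% of all genes). The 95% intervals went down to -0.73 for Cox6a1 and -0.54 for Cox6a2, and that of Cox7a1 went down to -0.92, which takes in its value of -0.87 in WT mice. These intervals, like the other limma comparisons, rest on a spread pooled over the 4 groups. The WT-TAC libraries lay over 2-fold apart in 2560 genes, against 275 to 362 genes within the other groups. The width of the intervals is therefore not that of the fat-1 libraries alone.

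Before overload, the genotypes were close. Between Fat1-Sham and WT-Sham, the members' log2 fold changes lay between -0.15 and 0.07, and limma called none of them and 0% of all genes, with 0 members at an unadjusted p under 0.05 and 1.5-fold (0.201% of all genes higher and 0.692% lower).

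After overload, most differences between the genotypes had the sign opposite to the TAC difference in WT mice. The WT-TAC libraries enter either comparison, which makes opposite signs not independent of each other. In Fat1-TAC against WT-TAC, 7 members were higher and 3 lower, the median was 0.46 against -0.40 over all genes, and the libraries of the 2 groups overlapped for none of the 10 (9.33% of all genes were higher and 57.1% lower without overlap). Cox6a1 was the called member (1 of 10, against 1.43% of all genes). It was lower in Fat1-TAC, by -0.94 on the log2 scale (standard error 0.16, Benjamini-Hochberg adjusted p = 0.0784, limma), and lower in 2 of 2 Fat1-TAC libraries than in both WT-TAC libraries. Over the alternatives its adjusted p ranged from 0.0041 to 0.47 and its fold change from -1.59 to -0.47, and the call was lost under median-of-ratios scaling, quantile normalization, a pseudocount of 0.1, a minimum mean of 5 FPKM, a fit of these 2 groups alone, the replicate block and limma-voom. It held without WT-TAC1 (-1.04, limma adjusted p = 0.0448) and without WT-TAC2 (-0.83, limma adjusted p = 0.0041), but was lost when any of the other 6 libraries was left out.

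The muscle forms were higher in Fat1-TAC but not called. Cox6a2 stood at 1.07 on the log2 scale (standard error 0.32, limma adjusted p = 0.159), above 99.8% of all genes, Cox8b had 0.74 (standard error 0.31, limma adjusted p = 0.169) and Cox7a1 0.69 (standard error 0.31, limma adjusted p = 0.176). At an unadjusted p under 0.05 and 1.5-fold, Cox6a2, Cox8b and Cox4i2 were higher (3 members, against 1.72% of all genes) and Cox6a1 lower (1 member, against 23.5% of all genes). Cox4i2 had 0.64 (limma adjusted p = 0.164), Cox6b1 0.51, Cox7a2 0.41 and Cox4i1 0.38, and Cox8a had -0.41 (limma adjusted p = 0.164), which was 0.06 under median-of-ratios scaling. Without WT-TAC1 these values were 0.58 for Cox6a2, 0.34 for Cox8b, 0.28 for Cox7a1 and 0.05 for Cox4i1. Without WT-TAC2, 9 members and 7837 genes were called, and Cox6a2 had 1.55. When libraries were scaled to the cardiomyocyte markers, the members' median was -0.20, Cox6a2 had 0.41, Cox8b 0.08, Cox7a1 0.03 and Cox6a1 -1.59, and Cox4i1, Cox7a2 and Cox6b1 turned to -0.28, -0.24 and -0.15.

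The interaction of genotype and surgery, the direct test that TAC acts differently in the genotypes, called none of the members (0.0692% of all genes). Cox6a1 had -0.92 (standard error 0.23) and Cox6a2 1.11 (standard error 0.45), each with a limma adjusted p of 0.495, and these were the 2 members at an unadjusted p under 0.05 and 1.5-fold (0.609% of all genes higher and 6.38% lower). Without WT-TAC1 they were -1.02 and 0.62 and 0 members were called, and without WT-TAC2 they were -0.82 and 1.60 and 9 members were called, with 6679 genes.

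The ratio of partners within a library does not depend on how the library is scaled. The clearest separation lay in the pair of Cox6a2 and Cox6a1. Cox6a2 was 9.46 and 7.71 times Cox6a1 in WT-Sham, 2.35 and 4.0 times in WT-TAC, 7.78 and 9.02 times in Fat1-Sham and 12.7 and 11.99 times in Fat1-TAC. Thus both WT-TAC libraries lay below, and both Fat1-TAC libraries above, all sham libraries. Expressed as the general share of the pair, Cox6a1 was 9.56% to 11.5% in the 4 sham libraries, 29.9% and 19.99% in WT-TAC and 7.32% and 7.70% in Fat1-TAC. On the log2 scale the mean ratio of WT-Sham was 3.09 ± 0.21 (SD, n = 2), that of WT-TAC 1.62 ± 0.54, that of Fat1-Sham 3.07 ± 0.15 and that of Fat1-TAC 3.62 ± 0.06. Fat1-TAC exceeded WT-TAC 4.02-fold.

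Cox8b and Cox8a followed in part. Cox8b was 9.60 and 6.02 times Cox8a in WT-Sham, 3.22 and 4.65 times in WT-TAC, 7.37 and 8.50 times in Fat1-Sham and 8.81 and 8.38 times in Fat1-TAC. WT-TAC was below every other library, but the fat-1 groups overlapped. The mean log2 ratio was lower after TAC in WT mice (difference -0.97), 0.12 higher after TAC in fat-1 mice and 1.15 higher in Fat1-TAC than WT-TAC, a 2.22-fold difference.

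The other muscle pair kept its ratio within a narrower range. Cox7a1 was 3.63 and 2.74 times Cox7a2 in WT-Sham, 2.39 and 3.11 times in WT-TAC, 3.26 and 3.77 times in Fat1-Sham and 3.17 and 3.42 times in Fat1-TAC. WT-TAC overlapped WT-Sham, and the fat-1 groups overlapped as well. The sum of the muscle forms Cox6a2, Cox7a1 and Cox8b was 2731 and 4949 FPKM in WT-TAC and 5821 to 7362 FPKM in the other 6 libraries, while the sum of their general partners was 1043 and 1291 FPKM in WT-TAC and 993.7 to 1262 FPKM in the others.

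**Figure D3:**
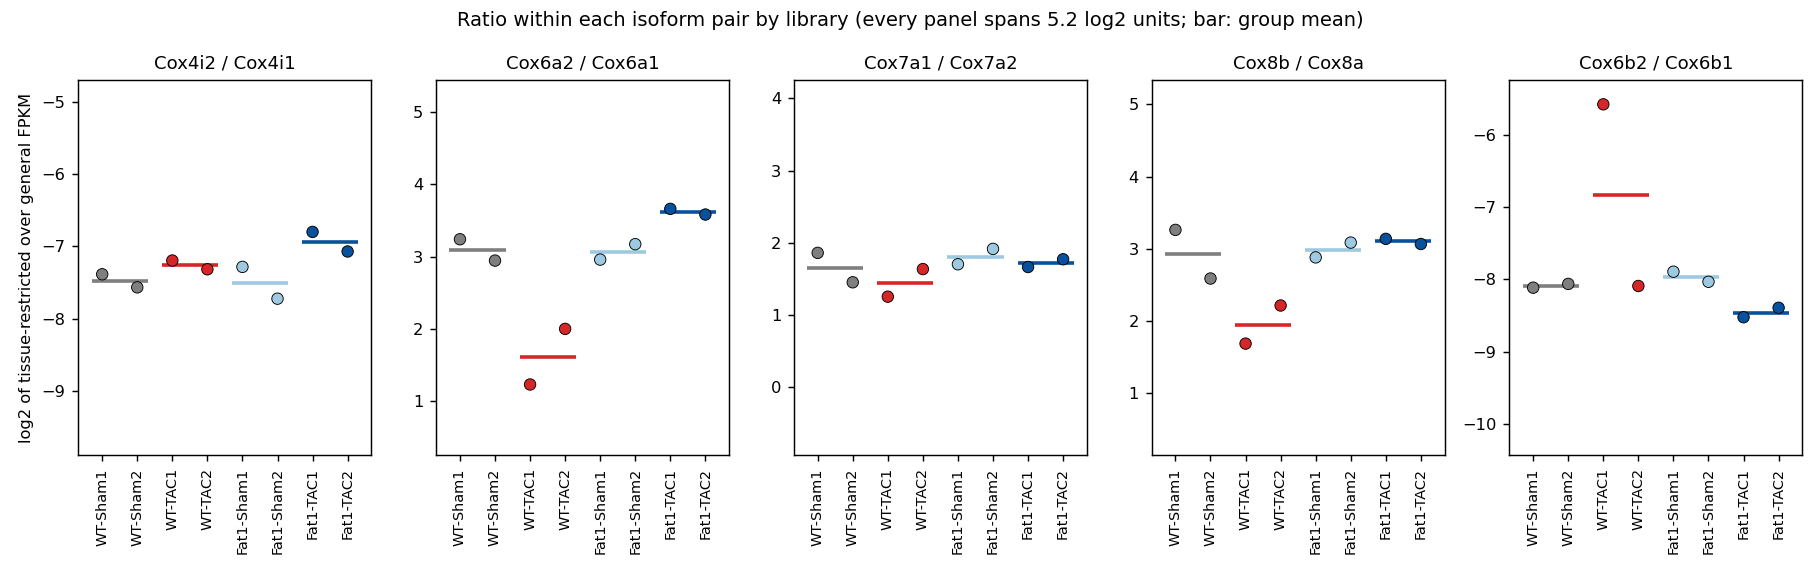
log2 of the tissue-restricted over the general FPKM within each pair, by library, with a bar at the mean of each group of 2 libraries. The WT-TAC libraries lie lowest for Cox6a2 over Cox6a1 (1.23 and 2.001) and Cox8b over Cox8a (1.69 and 2.22), and WT-TAC1 lies alone at -5.58 for Cox6b2 over Cox6b1.

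In the pairs led by the general form, Cox4i1 was 168.7 and 191.7 times Cox4i2 in WT-Sham, 148.8 and 161.1 times in WT-TAC, 157.1 and 213.7 times in Fat1-Sham and 112.1 and 135.5 times in Fat1-TAC. The share of Cox4i2 was therefore higher after TAC in both genotypes, without overlap within a genotype, by 0.22 on the log2 scale in WT and 0.57 in fat-1 mice. Cox6b1 was 282.2 and 272.5 times Cox6b2 in WT-Sham, 48.0 and 279.5 times in WT-TAC, 242.2 and 267.0 times in Fat1-Sham and 378.2 and 345.3 times in Fat1-TAC. WT-TAC1 again stood alone, and WT-TAC2 lay among the sham libraries.

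Because the exact permutation p of a ratio cannot go below 0.333 with 2 libraries a group, so the 4 TAC were set against the 4 sham libraries and the 4 fat-1 against the 4 WT libraries (two-sided, over 70 divisions, smallest possible p 0.0286). None of the 10 differences passed after adjustment over the 10, but a single pair could not have passed even at that smallest p. The outcome therefore does not show that the ratios were alike. For TAC against sham the log2 differences were -0.46 for Cox6a2 over Cox6a1, -0.43 for Cox8b over Cox8a, -0.15 for Cox7a1 over Cox7a2, 0.39 for Cox4i2 over Cox4i1 and 0.38 for Cox6b2 over Cox6b1. Leaving out WT-TAC1 changed these to 0.0021, -0.15, -0.04, 0.43 and -0.31 in the same order, and leaving out WT-TAC2 to -0.25, -0.32, -0.17, 0.47 and 0.53. Without Fat1-TAC1 or Fat1-TAC2, Cox6a2 over Cox6a1 had -0.81 or -0.78 and Cox6b2 over Cox6b1 0.67 or 0.63, and Cox7a1 over Cox7a2 had -0.24 without WT-Sham2 and -0.09 without Fat1-Sham2. The smallest p was that of Cox4i2 over Cox4i1 (exact permutation p = 0.0571, adjusted p = 0.476). For fat-1 against WT the differences were 0.99, 0.60, 0.21, 0.15 and -0.75 in the same order, with adjusted p of 0.476 or more from the exact permutation test. They were 0.62, 0.35, 0.11, 0.20 and -0.12 without WT-TAC1, and 0.87, 0.53, 0.24, 0.16 and -0.96 without WT-TAC2, and Cox4i2 over Cox4i1 had 0.0071 without Fat1-TAC1, 0.10 without Fat1-TAC2, 0.08 without WT-Sham2 and 0.32 without Fat1-Sham2. Leaving out WT-Sham1 brought 3 pairs to the smallest p of 7 libraries (exact permutation p = 0.0286, adjusted p = 0.0952): 1.29 for Cox6a2 over Cox6a1, 0.88 for Cox8b over Cox8a and 0.32 for Cox7a1 over Cox7a2. No other single library did so, and over the alternatives the adjusted p for Cox6a2 over Cox6a1 ranged from 0.0952 to 0.571.

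The difference between the TAC effects of the genotypes was set against an exact permutation over the 2520 ways to assign the libraries to the groups, a test added after seeing the data. Libraries were exchanged over all 4 groups, so an effect of genotype or surgery alone can also enter the p-values. With all 8 libraries the smallest possible p was 0.0286, too large for a single pair to pass after adjustment. The difference was 2.03 on the log2 scale for Cox6a2 over Cox6a1 (exact permutation p = 0.0857, adjusted p = 0.214). It was 1.09 for Cox8b over Cox8a (exact permutation p = 0.2), and 0.83 with WT-TAC1 and 1.36 with WT-TAC2 left out. For Cox6b2 over Cox6b1 it was -1.75 (exact permutation p = 0.0571, adjusted p = 0.214). For Cox6a2 over Cox6a1 it was 1.65 without WT-TAC1 (exact permutation p = 0.0286, adjusted p = 0.143) and 2.42 without WT-TAC2 (exact permutation p = 0.0286, adjusted p = 0.0714), so that the direction did not rest on either library. For Cox6b2 over Cox6b1, leaving out WT-TAC1 gave -0.49 and leaving out WT-TAC2 gave -3.01 (exact permutation p = 0.0095, adjusted p = 0.0476).

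The ratios were set beside the cardiomyocyte markers, whose geometric mean was lower in WT-TAC1. In WT-TAC2 that mean was 1945 FPKM, and Cox6a2 was 4.0 times Cox6a1. In WT-Sham2 the mean was 1976 FPKM and the ratio 7.71, and in WT-TAC1 they were 1041 FPKM and 2.35. The level of Cox6a1 was highest in WT-TAC2 (414.3 FPKM), the library with the highest airway epithelium sum (3915 FPKM), and second in WT-TAC1 (358.3 FPKM), which had the next highest (1758 FPKM). In Fat1-Sham1, with the next sum below these (88.9 FPKM), Cox6a1 had 274.2 FPKM, within the range of the WT-Sham libraries. By geometric mean the airway markers were higher in WT-TAC1 (32.4 FPKM) than in WT-TAC2 (10.8 FPKM), the reverse of the order by sum and by Cox6a1. White adipocyte markers summed to 611.7 and 791.7 FPKM in WT-TAC and 6.23 to 294.9 FPKM elsewhere, and fibroblast markers to 1014 and 1023 FPKM in WT-TAC and 548.5 to 986.8 FPKM elsewhere. Skeletal muscle, which also uses the muscle forms, had its highest geometric mean of markers in WT-TAC1 (19.5 FPKM). The part of any of these cell types in the isoform ratios was not tested.

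**Figure D4:**
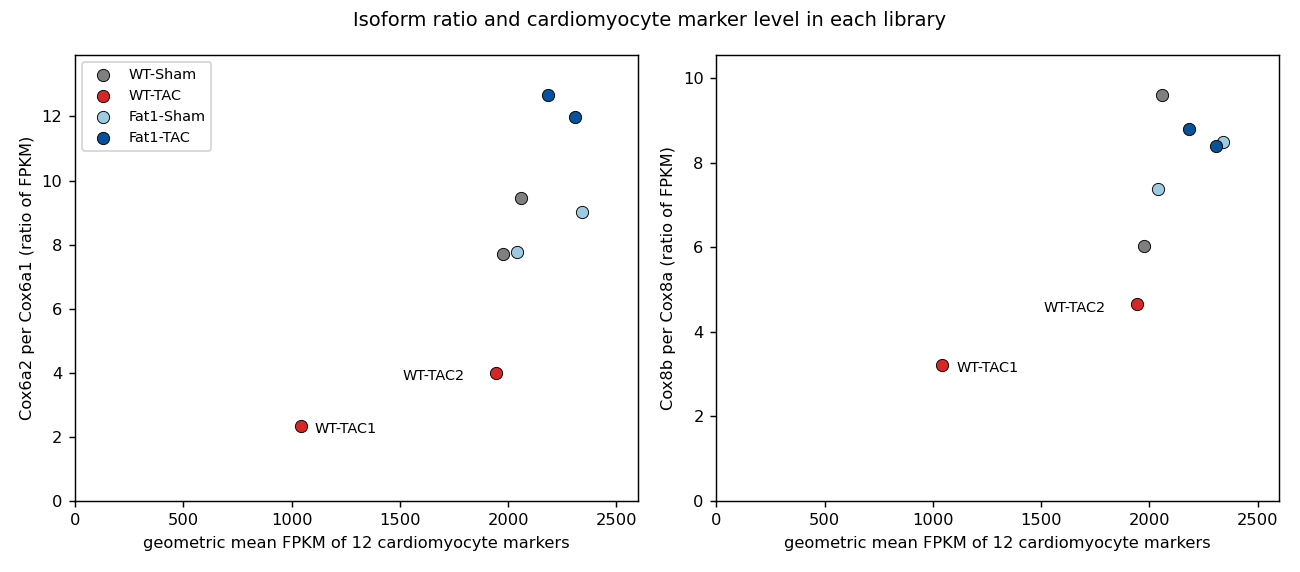
Cox6a2 per Cox6a1 (left) and Cox8b per Cox8a (right), as ratios of FPKM, against the geometric mean FPKM of 12 cardiomyocyte markers, with 1 point per library coloured by group. WT-TAC1 is low on both axes, and WT-TAC2 has a marker level of 1945 FPKM, near that of the sham libraries, and ratios of 4.0 and 4.65.

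The rest of the complex is the context for the pairs. All 10 other subunit genes examined were lower on average after TAC in WT mice (20.7% of all genes), at a median log2 fold change of -0.63. Limma called 0 of the 10 (0.935% of all genes). At an unadjusted p under 0.05 and 1.5-fold, 2 were lower (1.11% of all genes). The 10 included the mitochondrially encoded mt-Co2, a subunit of the catalytic core (-1.08), and Cox7a2l, a relative of Cox7a2 known for its place in supercomplexes (-0.0017). In Fat1-TAC against WT-TAC all 10 were higher, with a median of 0.66, where 78.0% of all genes were lower. Of the 10, limma called 0 (1.43% of all genes). At an unadjusted p under 0.05 and 1.5-fold, 6 were higher (1.72% of all genes). Cycs, which encodes cytochrome c, had -0.73 and 0.74 in these comparisons. Of 23 assembly and maturation genes, 20 were tested. After TAC in WT mice 8 of these were higher and 12 lower (20.7% of all genes were lower), the median was -0.02 and 0 were called. Among the 31 complex IV list genes tested, limma called 0 in each of the 5 comparisons, against 0% to 1.43% of all genes. Settings added after seeing the data moved these values. For TAC in WT mice, the median of the other subunits was -0.29 without WT-TAC1 (9 lower, against 20.04% of all genes). It was -0.87 without WT-TAC2 (9 lower, against 24.46% of all genes) and -0.12 under cardiomyocyte scaling (7 lower, against 4.34% of all genes). For Fat1-TAC set against WT-TAC, their median was 0.31 without WT-TAC1 (10 higher, where 76.88% of all genes were lower). Without WT-TAC2 it was 0.99 (9 higher, where 75.63% of all genes were lower). Under cardiomyocyte scaling it was 0.0076 (5 higher, where 96.96% of all genes were lower). Cycs had -0.25 and 0.26 without WT-TAC1. The assembly genes had a median of -0.11 without WT-TAC2 and of 0.45 under cardiomyocyte scaling (20 higher, where 4.34% of all genes were lower) for TAC in WT mice.

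The genes closest to each tissue-restricted form over the 8 libraries were found by the root mean square distance between centred log2(FPKM + 1) profiles, among 9457 genes with a mean of at least 5 FPKM. For Cox6a2 they were Ckmt2, the creatine kinase of heart mitochondria (distance 0.11), mt-Nd1, a complex I subunit (0.12), and Fitm1 (0.12). For Cox7a1 they were Asb11 (0.07), Atp5g1, a subunit of ATP synthase (0.07), and Ndufa5, a complex I subunit (0.09), and for Cox8b mt-Co1, the main catalytic subunit of complex IV (0.07), Gm44386 (0.08) and Ndufs6 (0.08). For Cox4i2 they were Nudt2 (0.08) and Rgs5 and Kcnj8, which mark pericytes (0.08 and 0.11), against a median distance of 0.47 over all genes, and for Cox6b2 Gm12960, Leprotl1 and Spcs2 (0.12 to 0.13). Without WT-TAC1, Rgs5 stayed at rank 2 for Cox4i2, Nudt2 was at rank 5 and Kcnj8 at rank 17, and Asb11 and Atp5g1 were still among the nearest 3 for Cox7a1. The genes named for Cox6a2 ranked 53, 16 and 99, those for Cox8b 8, 5 and 15 and those for Cox6b2 61, 14 and 76, in the order given. None of these last 3 lists kept a gene among its nearest 3. As a list, the smooth muscle and pericyte markers tested went both ways in Fat1-TAC against WT-TAC. There 5 were higher and 5 lower, and 78.0% of all genes were lower.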

How the data were processed

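The authors preprocessed the raw reads, mapped the clean reads and deposited FPKM per gene and library. The submitters' processing notes name HISAT2, mm10 and GRCm38, and the counting program and annotation are not given in the sources used here. Of 25933 lines 4 were blank, and 25852 of 25929 genes matched a symbol. Members, lists and motifs were chosen with earlier results of these data known. Coordinates, overlaps and shared 50-base stretches are from GENCODE M21 (GRCm38), promoters from RefSeq (GRCm38.p6). For all but 1 gene the FPKM values were whole fragments at a single length (tolerance 0.01 fragment), which gave depth and a floor of 3 fragments. Reads carry no molecular identifiers and may repeat a molecule, so the floor covers counting error only.

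Levels were compared with limma 3.58.1 (R 4.3.3), with log2(FPKM + 1) as response, 4 group means over 8 libraries and an eBayes trend, keeping genes that reached 1 FPKM in 2 or more libraries. Standard errors are those of lmFit scaled by the moderated spread. A fold change on this scale understates that of low genes, and genes were called at the cutoffs of the study, an adjusted p under 0.1 and 1.5-fold. Ratios were log2((tissue-restricted + 0.1)/(general + 0.1)), tested by exact permutation with numpy 2.4.6 and adjusted over the 10 differences of 5 pairs and 2 factors (interaction: over 5). The script was tested on simulated data. Genes named are the members, the complex IV list, marker lists (cardiomyocyte, lung and airway, thymocyte, fibroblast, white and brown adipocyte, skeletal muscle, smooth muscle and pericyte, spermatid) and the 3 nearest profiles of each tissue-restricted form. In WT-TAC1 the skeletal muscle marker Mylpf had 65.4 FPKM, against at most 2.96 FPKM elsewhere. Smooth muscle and pericyte markers summed to 374.8 to 582.4 FPKM and brown adipocyte markers to 109.4 to 380.8 FPKM over the libraries, and of 5 spermatid markers 0 matched a listed gene. Alternatives were median-of-ratios and quantile scaling, no filter, a filter at a mean of 5 FPKM, other pseudocounts, a replicate block, fits of 2 groups alone, limma-voom on recovered fragments and each library left out.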

Additional observations from a re-analysis of the deposited data

Results flagged for a closer look

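In 3 members and in 1 ratio, both libraries moved one way after TAC in WT mice and both the other way in fat-1 mice, without overlap, and in each the test of the difference did not pass. Of all genes, 52.5% were higher and 7.09% lower without overlap after TAC in WT mice, and 26.8% and 21.5% in fat-1 mice. The share of all genes that moved in opposite ways was not counted. For Cox8a the fat-1 groups were only just apart, with 253.5 FPKM in Fat1-TAC1 and 256.4 FPKM in Fat1-Sham2. On the log2 scale the difference between the TAC effects (fat-1 minus WT) was 1.11 for Cox6a2, -0.92 for Cox6a1 and -0.33 for Cox8a, each with a limma adjusted p of 0.495. For the ratio of Cox6a2 to Cox6a1 it was 2.03 (exact permutation test, adjusted p = 0.214).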

How the results depend on the processing

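With 2 libraries in each group, and WT-TAC1 and WT-TAC2 unlike each other, the calls depended on the settings more than the directions did. Of 712 alternative values over 48 results, 596 kept their direction and, for a test, their side of the threshold or, for a count of calls, a value within 1.5 times. By those criteria 70 were weaker (a lost call or a lower count), 34 stronger and 12 reversed. Except where stated, the cause was not tested.

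For WT-TAC against WT-Sham, 135 genes were called, and 23 under median-of-ratios scaling, 16 under quantile normalization, 293 with no filter, 9 where a mean of 5 FPKM was required, 33 with pseudocount 0.1, and 6 with limma-voom. For Fat1-TAC against WT-TAC the 206 genes became 20, 14, 350, 15, 33 and 92 in the same order and 41 in a fit of the 2 groups alone, and the 1 called member became 0 in all of these but the fit with no filter. For Fat1-TAC against Fat1-Sham the 1 gene became 0 with no filter, the filter at a mean of 5 FPKM, the 2 groups alone and limma-voom. For the interaction the 10 genes became 1 under median-of-ratios scaling, 70 with no filter, 19 under cardiomyocyte scaling, and 0 under quantile normalization, pseudocount 0.1, the filter at a mean of 5 FPKM and limma-voom.

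Cardiomyocyte scaling, chosen after seeing the data, reversed Cox4i2 in WT-TAC against WT-Sham (0.18) and Cox4i1 (-0.28), Cox7a2 (-0.24) and Cox6b1 (-0.15) in Fat1-TAC against WT-TAC. Median-of-ratios scaling reversed Cox8a in both (-0.22 and 0.056), and quantile normalization reversed Cox6b2 in WT-TAC against WT-Sham (-0.018). In the 4 sham libraries alone 0 of the 9 neighbours in the order of levels differed, against 6 in all 8, since 4 libraries cannot give an exact permutation p below 0.125.

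Leaving out 1 library at a time, WT-TAC against WT-Sham called 0 to 7 members and 0 to 7408 genes, Fat1-TAC against WT-TAC 0 to 9 members and 6 to 7837 genes, the interaction 0 to 9 members and 0 to 6679 genes, and Fat1-TAC against Fat1-Sham 0 to 7 genes. The highest counts of the first 3 were without WT-TAC2, where WT-TAC1 was the lone library of its group and was assumed to vary like the others. Cox6b2 in WT-TAC against WT-Sham ranged from -0.34 to 1.42. For TAC against sham the log2 ratio difference ranged from -0.81 to 0.0021 for Cox6a2 over Cox6a1 (the latter without WT-TAC1) and from -0.31 to 0.67 for Cox6b2 over Cox6b1. For fat-1 against WT it ranged from 0.62 to 1.29 for Cox6a2 over Cox6a1, 0.11 to 0.32 for Cox7a1 over Cox7a2 and 0.35 to 0.88 for Cox8b over Cox8a, and for the interaction from 1.65 to 2.42, -0.083 to 0.32 and, for Cox6b2 over Cox6b1, -3.01 to -0.49.

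The replicate numbers are shared by the groups, but same-numbered libraries did not deviate together (correlations of deviations from the group means -0.135 to 0.024, none over 0.1), so they share only a number. With the replicate block, 52 genes were called in WT-TAC against WT-Sham, 52 in Fat1-TAC against WT-TAC with 0 members (Cox6a1, limma adjusted p = 0.152) and 0 in the interaction. No ratio changed its call with the block. There the smallest possible exact permutation p was 0.0556, too large for a single pair to pass after adjustment.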
